A study of Mus musculus with 48 samples.

Results

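A set of 8 genes of hepatic fructose and glucose handling was followed through whole mouse liver. They are the sugar transporters Slc2a2 and Slc2a5, the fructose-metabolising enzymes Khk and Tkfc, the gluconeogenic enzymes Fbp1, Pck1 and G6pc, and Txnip, a sugar-responsive regulator. The genes were chosen by name, with earlier results of these data known. All 8 were found among 29221 genes in a matrix of RNA-seq read counts joined over 48 livers.

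The mice carried a floxed Pparg gene, the gene of the nuclear receptor PPARγ, in every group. After 16 weeks they received AAV8-TBG-Cre, here called labelled knockouts, or AAV8-TBG-null, here called controls. The TBG promoter drives Cre in hepatocytes, so the other cells of the liver were not targeted. Low fat (LF) and high fat (HF) diets were fed for 34 weeks. The HFCF groups ate the HF diet for 18 weeks and then one rich in fat that also held cholesterol and fructose, for 16 weeks. The labels call the LF mice healthy, the HF mice steatotic and the HFCF mice affected by NASH, a fatty liver with inflammation. Males gave 4 groups of 6 livers (HF and HFCF, control and labelled knockout), and females gave 6 groups of 4 livers (LF, HF and HFCF, control and labelled knockout). The labels state that the mice were adult, and their exact age, feeding state and hour of sampling are not given in the sources used here. Tests of diet and of the labelled knockout were run within each sex. A p-value here sets the difference between groups against the spread between the livers within them.

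Fructose enters cells through GLUT5, the product of Slc2a5, and enters and leaves hepatocytes together with glucose through GLUT2, the product of Slc2a2. Ketohexokinase (Khk) phosphorylates fructose, the product is split, and triokinase (Tkfc) phosphorylates the glyceraldehyde that results, so that fructose carbon joins glycolysis and gluconeogenesis at the triose level. Pck1, Fbp1 and G6pc encode the enzymes of the irreversible steps by which the liver makes glucose, and hormones of fasting and feeding set their transcription. The transcription factor ChREBP (gene Mlxipl) responds to sugar metabolites and is known to act on Khk, Slc2a2, G6pc and Txnip. Txnip encodes a thioredoxin-binding protein of the arrestin family that limits glucose uptake.

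The promoters of the 4 members with a match to any searched motif are shown. Most motifs searched are those of factors that sugar, insulin and fasting act through. A PPAR element and the TATA box, a general promoter element, were searched as well. Each line gives the 250 bases before the RefSeq transcription start (GRCm38.p6), 5′ to 3′ on the gene's strand, which is the plus strand for these 4, capitals mark the matches, and positions are counted back from that start. The windows are chr3:96557707-96557956 for Txnip, chr11:101367466-101367715 for G6pc, chr2:173152823-173153072 for Pck1 and chr5:30921309-30921558 for Khk.
Txnip: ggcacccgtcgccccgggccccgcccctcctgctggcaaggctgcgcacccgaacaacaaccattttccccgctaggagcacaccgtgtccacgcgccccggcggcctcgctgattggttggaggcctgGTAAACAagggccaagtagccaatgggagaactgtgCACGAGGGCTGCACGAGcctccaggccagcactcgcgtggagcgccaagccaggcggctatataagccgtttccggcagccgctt
G6pc: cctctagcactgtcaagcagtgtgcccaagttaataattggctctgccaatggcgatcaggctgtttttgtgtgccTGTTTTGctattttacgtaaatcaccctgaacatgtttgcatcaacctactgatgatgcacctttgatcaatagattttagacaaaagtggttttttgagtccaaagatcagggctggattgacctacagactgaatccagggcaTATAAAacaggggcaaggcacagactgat
Pck1: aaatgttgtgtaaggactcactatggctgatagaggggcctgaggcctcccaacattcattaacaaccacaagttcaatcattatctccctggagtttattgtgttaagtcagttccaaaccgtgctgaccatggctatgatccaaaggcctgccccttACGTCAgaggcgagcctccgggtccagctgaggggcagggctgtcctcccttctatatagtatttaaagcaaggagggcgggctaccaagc
Khk: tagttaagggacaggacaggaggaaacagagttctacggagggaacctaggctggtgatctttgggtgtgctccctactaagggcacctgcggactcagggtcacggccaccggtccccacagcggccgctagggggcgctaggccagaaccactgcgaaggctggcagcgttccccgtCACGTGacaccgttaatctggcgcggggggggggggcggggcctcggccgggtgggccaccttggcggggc
The motifs were searched on both strands of windows of 300 bases, from 250 before to 50 after the start, in 32851 mouse promoters of the RefSeq table, which held all 8 members. In Txnip, positions -85 to -69 matched 2 copies of CACGNG that are 5 bases apart, a paired E-box type bound by ChREBP. That pattern, with both copies in the same direction, occurred in 16 promoters, or 0.0487% of all. Other arrangements of the pair were not searched. Txnip also matched TGTTTAC, a FOXO core, on the opposite strand at -121 to -115 (3.65% of promoters held it). G6pc matched TGTTTTG, an insulin response core, at -174 to -168 (6.28% of promoters) and the TATA box TATAAA at -29 to -24 (13.6%). Pck1 matched ACGTCA, the core of a cyclic AMP response element, at -91 to -86 (7.51%). Khk matched CACGTG, a single E-box, at -71 to -66 (7.15%). The DR1 type PPAR element, 2 copies of AGGTCA that are 1 base apart (0.0396%), and the full cyclic AMP element TGACGTCA (1.79%) were found in none of the 8 windows. A match is a description of the letters and not of binding. The windows of Tkfc, Slc2a2, Slc2a5 and Fbp1 held none of the 8 motifs searched, which says only that these letters are not in these windows.

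Libraries held 15338239 to 22072884 reads on genes. Levels are given as CPM, the usual rate of a gene's counts relative to all reads of its library, after scaling the libraries with TMM factors. As a check of the labels, whole-gene Pparg reads were not lower in labelled knockouts, with 55.9 ± 6.05 CPM (SD, n = 6) against 32.0 ± 5.59 CPM (n = 6) in HFCF males (edgeR quasi-likelihood adjusted p = 0.000805). The group means were also higher in labelled knockouts in HF males (41.2 and 34.3 CPM) and in females on LF (15.6 and 10.5), HF (28.8 and 18.6) and HFCF (46.0 and 23.7). Whole-gene counts do not show which exons the reads came from, and the term labelled knockout is therefore kept throughout. The summed CPM of 9 hepatocyte markers ran from 47207 to 131308 over the libraries, so hepatocyte RNA was abundant in all of them. Of 7 kidney markers 4 were found, and they summed to at most 1.49 CPM. The adipocyte list (6 of 7 found) summed to 491 to 3142 CPM, with Car3 up to 3109 CPM, while Adipoq reached at most 0.11 CPM. The small intestine list (5 of 7 found) summed to 277 to 2227 CPM, with Apoa4 up to 2101, Fabp2 up to 186 and Lgals4 up to 89 CPM, while Cdx2 and Vil1 reached at most 0.12 and 2.1 CPM. Blood markers (5 of 5 found) summed to 72.8 to 761 CPM and pancreas markers (2 of 6 found) to 5.53 to 49.6 CPM, with the highest value of both in HF male labelled knockouts. Single livers stood at the edge of their group for many members. HFCF labelled knockout male 6 and HFCF control male 1 each had the highest value of their group for 6 of the 8 members, and female HF control 1 had the lowest for 6. Female HFCF control 3 had the highest for 5, and female LF labelled knockout 4 the lowest for 5. Results that change without a single library are named where they occur.

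Measured per kilobase of the deposited gene length, Fbp1 was the most abundant member, with a median of 667 CPM per kb over the 48 libraries. Pck1 followed at 409, Khk at 300 and Tkfc at 248 CPM per kb. Slc2a2 and G6pc lay close together at 81.0 and 80.2 CPM per kb, and Txnip had 39.5. Slc2a5 had only 3.52 CPM per kb, and its count of 61 to 606 reads per library makes it the least precisely measured member. The members differed in how far the 10 group means spread. The highest mean was 4.83 times the lowest for Pck1, 4.68 times for G6pc and 3.43 times for Slc2a5. It was 2.46 times for Txnip, and between 1.61 and 1.82 times for Khk, Tkfc, Slc2a2 and Fbp1. In the order of group means, neighbouring groups overlapped at each of the 9 steps for 6 members, so that no 2 adjacent groups stood apart. For G6pc the female LF controls stood above all others, and for Pck1 the female LF labelled knockouts stood above the female HF controls that followed them. The share of all genes with such overlaps was not computed. These steps therefore describe the members and do not set them apart from other genes.

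**Figure D1:**
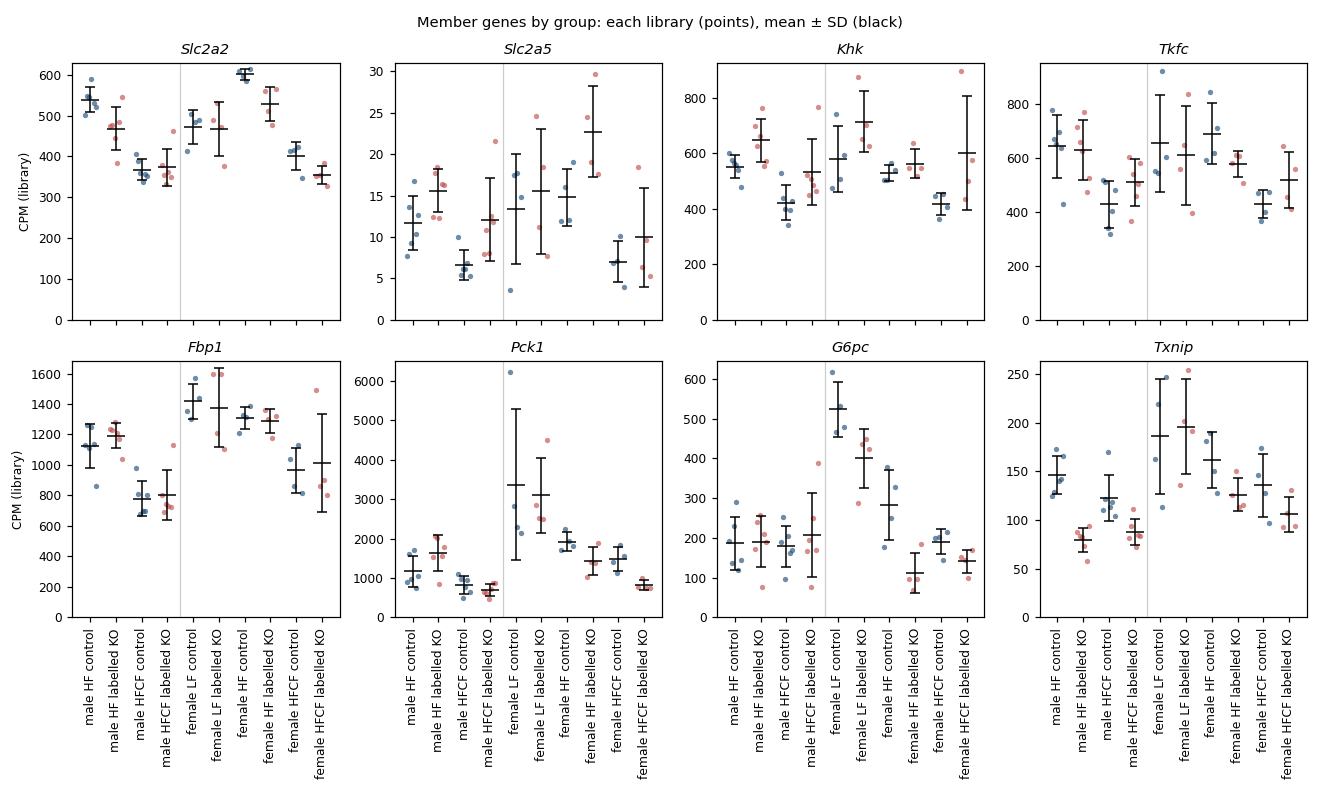
CPM of each of the 8 genes in the 10 groups, with 1 point per library and the group mean ± SD in black (6 libraries per male group, 4 per female group; blue for controls, red for labelled knockouts). Pck1 and G6pc were highest in the LF females, and Slc2a2 was lower in every HFCF group than in the HF group of the same sex and genotype by mean.

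The HFCF diet was rich in fat and also held cholesterol and fructose, and it replaced the HF diet after 18 weeks. Its comparison with HF describes the genes of fructose use under that diet. The parts of fructose, cholesterol, other contents of the diet, the switch and the NASH state cannot be told apart. In controls of both sexes the same 5 members were lower on HFCF: the transporters Slc2a2 and Slc2a5, the fructose enzymes Khk and Tkfc, and Fbp1. That is 5 of 8 members lower and 0 higher in each sex. The members were chosen with earlier results of these data known, so this count is a description and not a test. Among all genes tested, 9.31% were called lower in male controls and 13.8% in female controls, and 13% and 16.9% were called higher, and 22.3% and 30.8% in either direction. These shares are not matched for abundance. By median CPM, Slc2a5 stood at percentile 72.7 of all genes, and the other members from 95.8 (Txnip) to 99.7 (Pck1 and Fbp1). The median log2 change of the members was -0.50 in each sex, where the median of all genes was 0.01 in males and -0.02 in females. A gene was called where the edgeR quasi-likelihood adjusted p over all genes was under 0.05, and every adjusted p below is of that test unless another is named. Ranges that stand apart are given as a description. The share of all genes with such ranges is given only for the labelled knockout in females. Leaving out 1 library at a time gave 5 to 6 members in males and 3 to 6 in females, with 3 wherever Khk and Fbp1 were both lost.

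Slc2a2 (ENSMUSG00000027690, GRCm38 chromosome 3, 28697903 to 28731359, plus strand) encodes GLUT2, the main glucose transporter of hepatocytes. In male controls it ran from 501 to 589 CPM on HF, with a median of 538, and from 338 to 407 CPM on HFCF, with a median of 357. No library of one diet reached the other. The log2 change was -0.53 (SE 0.06, adjusted p = 0.000235). Female controls measured 610, 598, 584 and 613 CPM on HF and 414, 415, 422 and 348 CPM on HFCF. Their ranges were again apart, with a log2 change of -0.58 (SE 0.09, adjusted p = 0.00546). Slc2a2 was the only member called lower in all 4 comparisons of HFCF with HF, with -0.31 (adjusted p = 0.0102) in male and -0.57 (adjusted p = 0.00914) in female labelled knockouts. It overlaps 1700112D23Rik on the other strand, which had at most 27 reads in a library.

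Slc2a5 (ENSMUSG00000028976, chromosome 4, 150119283 to 150144169, plus strand) encodes the fructose transporter GLUT5, which the intestine uses far more than the liver. Male controls had 7.66 to 16.7 CPM on HF (median 11.5) and 5.28 to 10.0 CPM on HFCF (median 6.09). The single overlapping HFCF library was replicate 1, the highest of its group at 10.0 CPM. The log2 change was -0.80 (SE 0.19, adjusted p = 0.00848). Female controls had 11.9, 16.0, 12.1 and 19.1 CPM on HF and 6.81, 7.08, 10.1 and 4.00 CPM on HFCF, without overlap, a log2 change of -1.06 (SE 0.26, adjusted p = 0.0163). In female labelled knockouts the values were 24.5, 19.1, 29.7 and 17.6 CPM on HF and 18.5, 6.36, 9.65 and 5.25 CPM on HFCF. This was the largest log2 change of the gene, -1.22 (SE 0.35), but it was called at adjusted p = 0.0419 and of 8 fits that left out 1 library each it kept the call in 1, the fit without HFCF labelled knockout 1, with log2 values of -1.66 to -1.01 over the 8. In male labelled knockouts the value was -0.35 (adjusted p = 0.181), and it was called, at -0.57, without HFCF labelled knockout 6.

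Khk (ENSMUSG00000029162, chromosome 5, 30921431 to 30931248, plus strand) commits fructose to the liver by phosphorylation. Male controls had 478 to 601 CPM on HF (median 561) and 340 to 530 CPM on HFCF (median 412). The HFCF replicate 1, at 530 CPM, lay within the HF range, and the log2 change was -0.37 (SE 0.09, adjusted p = 0.00986). Female controls had 503, 505, 565 and 538 CPM on HF and 444, 363, 452 and 406 CPM on HFCF, a change of -0.33 (SE 0.10, adjusted p = 0.029) with ranges apart. That call was kept in 3 of 8 fits without 1 library. It was lost without HFCF control 1, 2 or 5 or HF control 3 or 4, with log2 values of -0.38 to -0.28 over the 8 fits and adjusted p of at most 0.08. In labelled knockouts Khk was not called, at -0.26 in males (adjusted p = 0.0915) and 0.10 in females (adjusted p = 0.785). In the males it was called, at -0.37, without HFCF labelled knockout 6, whose 766 CPM exceeded the 448 to 521 CPM of the other 5.

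Tkfc (ENSMUSG00000034371, chromosome 19, 10592200 to 10604258, minus strand) encodes triokinase, which passes the glyceraldehyde from fructose into the triose phosphate pool. Its reads could include some of the overlapping Cyb561a3, which had at most 336 reads in a library where Tkfc had at least 5971. Male controls had 427 to 779 CPM on HF (median 661) and 319 to 517 CPM on HFCF (median 442), where HF replicate 6 at 427 CPM was the HF library within the HFCF range. The log2 change was -0.56 (SE 0.14, adjusted p = 0.0127). Female controls had 592, 843, 616 and 711 CPM on HF and 470, 367, 401 and 472 CPM on HFCF, with no overlap and a change of -0.68 (SE 0.14, adjusted p = 0.0087). The labelled knockouts had -0.29 in males (adjusted p = 0.0863, called without HF labelled knockout 5) and -0.15 in females (adjusted p = 0.541).

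Fbp1 (ENSMUSG00000069805, chromosome 13, 62864753 to 62888282, minus strand) encodes the fructose bisphosphatase of gluconeogenesis. Male controls ran from 861 to 1261 CPM on HF (median 1134) and from 680 to 979 CPM on HFCF (median 751). Replicate 6 on HF and replicate 1 on HFCF were the libraries that overlapped, and the log2 change was -0.51 (SE 0.10, adjusted p = 0.00412). Female controls had 1209, 1328, 1315 and 1386 CPM on HF and 1042, 864, 1134 and 818 CPM on HFCF. Their change of -0.43 (SE 0.12, adjusted p = 0.0264) had ranges apart but was called in 2 of 8 fits without 1 library. Only the fits without HFCF control 3 or HF control 1 kept it, with log2 values between -0.52 and -0.36 over all 8. Male labelled knockouts fell by 0.55 on the log2 scale (adjusted p = 0.000778), and female labelled knockouts showed -0.35 (adjusted p = 0.243). In the female labelled knockouts the HFCF replicate 1, at 1491 CPM, was above the other 3 libraries at 803 to 902 CPM, and without it Fbp1 was called at -0.57.

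Pck1 (ENSMUSG00000027513, chromosome 2, 173153048 to 173159273, plus strand) encodes the cytosolic PEPCK, which turns oxaloacetate to phosphoenolpyruvate. On HFCF it was called lower in labelled knockouts of both sexes and in controls of neither sex. Male labelled knockouts ran from 853 to 2076.5 CPM on HF (median 1671) and from 463 to 881 CPM on HFCF (median 682). Only HF replicate 4, at 853 CPM, reached into the HFCF range. The change was -1.21 (SE 0.19, adjusted p = 0.000155). Female labelled knockouts had 1022, 1414, 1388 and 1894 CPM on HF and 780, 1008, 750 and 753 CPM on HFCF, a change of -0.79 (SE 0.19, adjusted p = 0.0227) with ranges apart that was kept in 4 of 8 fits without 1 library (log2 -0.91 to -0.64). It was lost without HFCF labelled knockout 3 or 4 or HF labelled knockout 2 or 4. In controls the log2 values were -0.48 in males (adjusted p = 0.129) and -0.36 in females (adjusted p = 0.105), and each was called without 1 library, male HFCF control 1 or female HFCF control 3. The difference between labelled knockouts and controls in this diet change was itself -0.74 in males (adjusted p = 0.217), so it was not shown to differ, and it was not called in females either (-0.41, adjusted p = 0.958).

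In the labelled knockouts as a whole, 3 of 8 members were lower in each sex and 0 higher, where 20% of all genes were called lower in males and 6.01% in females, 21.6% and 8.44% higher, and 41.7% and 14.5% in either direction. The 3 were Slc2a2, Pck1 and Fbp1 in males and Slc2a2, Slc2a5 and Pck1 in females. Without 1 library the count ran from 3 to 5 in males, with 5 without HFCF labelled knockout 6, and from 1 to 4 in females. G6pc and Txnip were called in none of the 4 comparisons of HFCF with HF. The log2 values of G6pc were -0.03 in male and -0.56 in female controls (adjusted p = 0.0762 in females), and 0.13 and 0.35 in male and female labelled knockouts. For the female controls the adjusted p in the authors' deposited table was 0.0498. Txnip lay between -0.24 and 0.16. Without female HF control 1, G6pc was called lower in female controls, and without male HFCF control 3, Txnip was called lower in male controls.

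**Figure D2:**
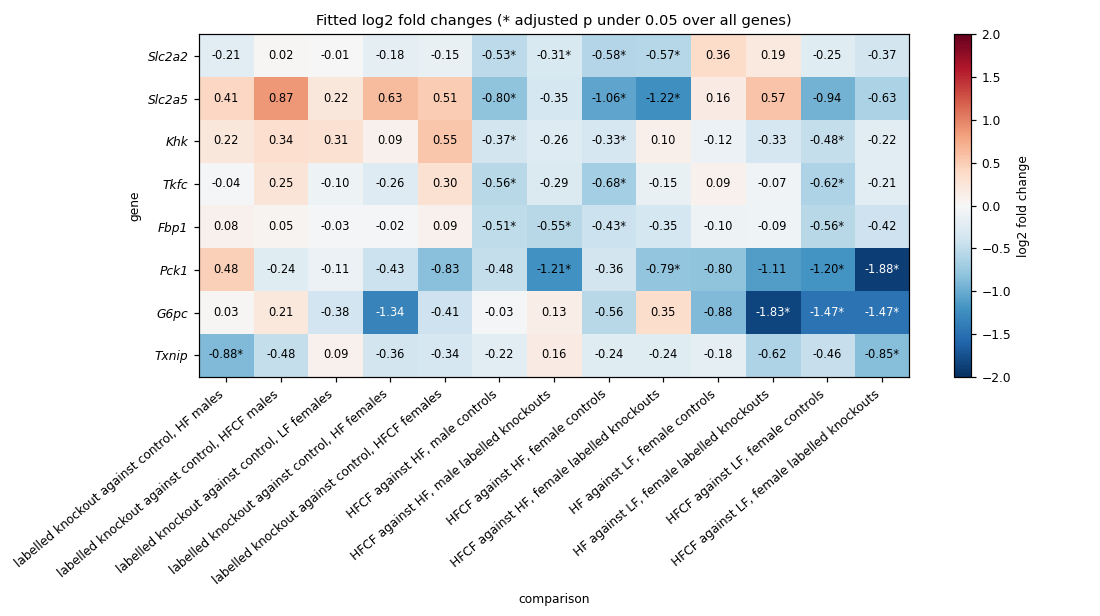
Fitted log2 fold changes of the 8 genes (rows) in 13 pairwise comparisons (columns), with an asterisk where the adjusted p was under 0.05. No member was called higher in any column. Slc2a2, Slc2a5, Khk, Tkfc and Fbp1 carry the asterisks of HFCF against HF in controls of both sexes. With libraries scaled to the hepatocyte markers some of these directions turn, as given in the text.

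Hepatocyte markers, macrophage markers and clock genes moved with the diet too. The 9 hepatocyte markers summed to a median of 88708 CPM in male HF controls and 58566 CPM in male HFCF controls, and to 114741 and 69831 CPM in female HF and HFCF controls. In male controls 5 of the 9 were called lower and 0 higher, with a median log2 change of -0.27. In female controls the count was 6 lower and 0 higher, with a median of -0.66. In labelled knockouts 7 were lower in males and 0 in females, with 0 higher in either and medians of -0.63 and -0.33. The 8 macrophage markers summed to medians of 245 and 444 CPM in male HF and HFCF controls, and to 234 and 543 CPM in females, with 7 of 8 called higher in each sex. In labelled knockouts 7 of 8 were called higher in males and 4 of 8 in females. In whole liver, fewer hepatocytes and less RNA of a gene per hepatocyte cannot be told apart.

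The changes were also computed with libraries scaled to the geometric mean of the 9 hepatocyte markers, an alternative chosen after the fall of these markers was seen. This scaling moved the median of all genes to 0.31 in male controls, 0.59 in female controls, 0.60 in male and 0.48 in female labelled knockouts, and between 96.7% and 98.8% of called genes were then higher, against 51.9% to 58.4% with TMM. Relative to the hepatocyte markers, Slc2a2 (-0.23), Slc2a5 (-0.51) and Fbp1 (-0.21) were still called lower in male controls, while Khk (-0.08) and Tkfc (-0.28) were not. In female controls none of the 8 was called, and Khk, Fbp1 and Slc2a2 turned to positive values of 0.27, 0.17 and 0.03. Pck1 in male labelled knockouts was still called lower at -0.60, whereas Slc2a2 and Khk there turned to 0.30 and 0.33 and were called higher, with G6pc at 0.72 and Txnip at 0.80. In female labelled knockouts Slc2a5 stayed lower at -0.84, and Khk and G6pc were called higher at 0.54 and 0.88. With TMM, 0 of the 9 hepatocyte markers were called in that comparison. The direction of Slc2a2, Khk and Fbp1 on HFCF thus depended on the scale in female controls and in male labelled knockouts. Of values called under neither scaling, G6pc, Pck1 and Txnip turned in female controls, G6pc and Txnip in male controls, Slc2a5 and Tkfc in male labelled knockouts, and Fbp1, Tkfc and Txnip in female labelled knockouts. The part of the hepatocyte and macrophage markers in the members' changes was not tested beyond this.

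**Figure D3:**
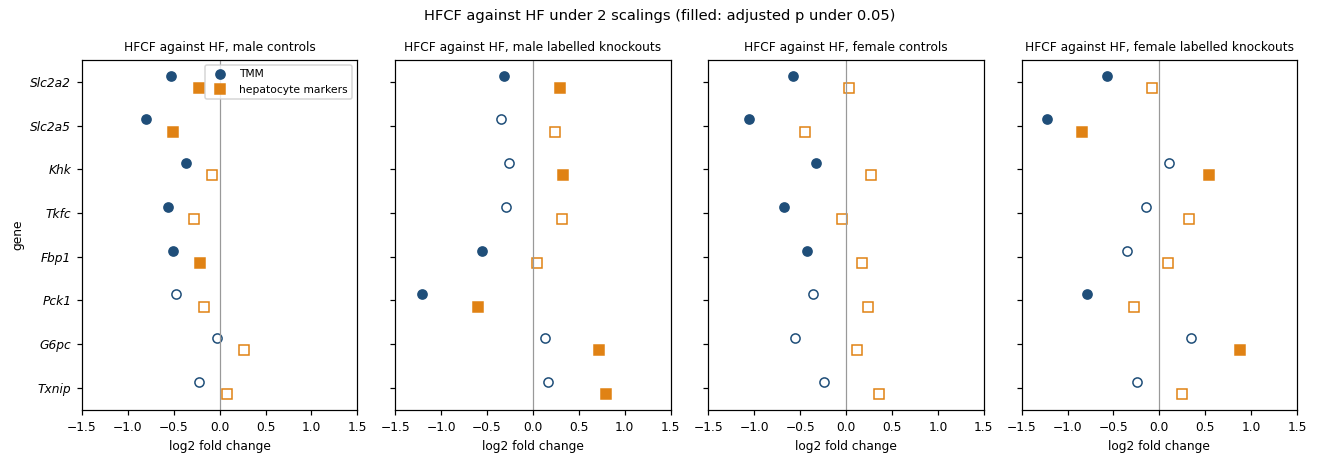
Log2 fold change of each gene on HFCF against HF with TMM scaling (blue circles) and with libraries scaled to 9 hepatocyte markers (orange squares), filled where the adjusted p was under 0.05. All 8 points move to the right with the second scaling, and in male controls Slc2a2, Slc2a5 and Fbp1 keep filled symbols left of 0.

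The clock genes were read because Pck1, G6pc and Slc2a2 are known to follow the hour of the day and the last meal. Their summed level was 766 to 961 CPM in male HF controls and 562 to 840 CPM in male HFCF controls, and 1105 to 1369 CPM against 567 to 1004 CPM in female controls. Arntl and Npas2, which drive the clock, were called higher on HFCF in all 4 comparisons, and Per2, Per3, Cry2, Tef and Ciart, which are its repressors or outputs, were called lower in all 4. In female controls, for example, Arntl rose by 1.82 and Ciart fell by 2.17 on the log2 scale (adjusted p = 0.0203 and 0.00604), and Arntl was not called without HF control 3. Their part in the members' changes was not tested.

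**Figure D4:**
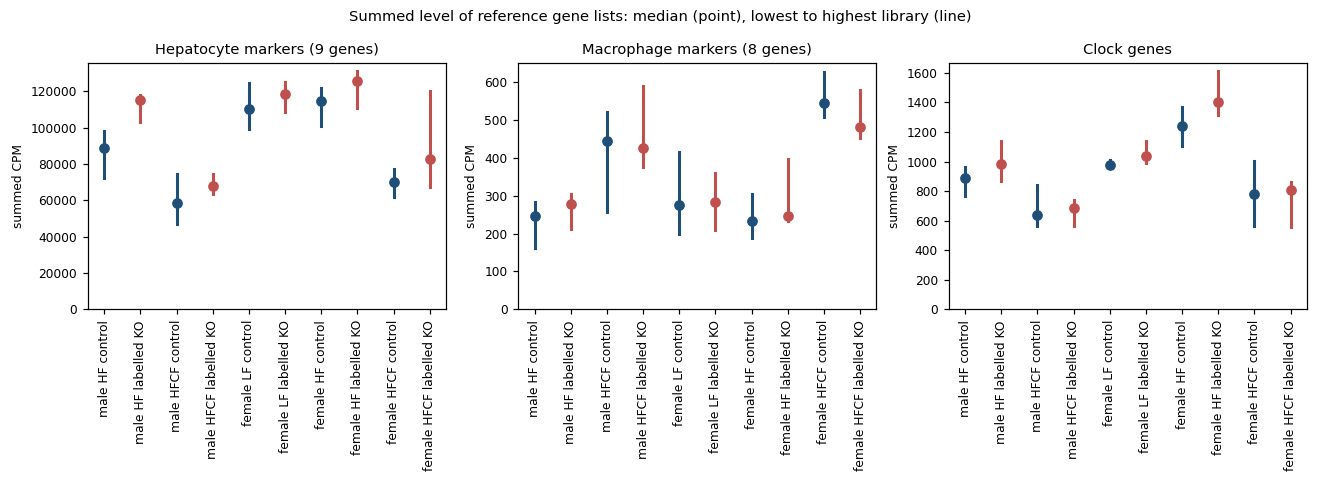
Summed CPM of the hepatocyte marker, macrophage marker and clock gene lists in the 10 groups, with the median as a point and the lowest to highest library as a line (blue controls, red labelled knockouts). The hepatocyte and clock sums were lower, and the macrophage sums higher, by median in each HFCF group than in the HF group of the same sex and genotype.

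The wider list of fructose uptake and breakdown holds 14 genes, all tested, and includes 4 of the members. This list and those below were chosen with earlier results of these data known. On HFCF against HF, 10 of the 14 were lower and 1 higher in controls of each sex, 7 lower and 1 higher in male labelled knockouts, and 5 lower and 1 higher in female labelled knockouts. Over all genes tested, 9.31% and 13.8% were called lower in male and female controls, and 20% and 6.01% in male and female labelled knockouts. Called higher were 13%, 16.9%, 21.6% and 8.44% in the same order. The list's median log2 changes were -0.38, -0.45, -0.30 and -0.16 in the same order, where those of all genes were 0.01, -0.02, -0.02 and -0.01. The gene that rose in all 4 was Akr1b3, aldose reductase, which turns glucose to sorbitol, the start of the route by which tissues make their own fructose. It had 6.98 ± 0.951 CPM (SD, n = 6) in male HF controls and 12.6 ± 2.17 CPM (n = 6) on HFCF, a log2 change of 0.88 (adjusted p = 0.00107), and its values in female controls were 7.44 ± 2.15 and 14 ± 2.07 CPM (n = 4 each, adjusted p = 0.0137). In female labelled knockouts the call of Akr1b3 was kept in 2 of 8 fits without 1 library. Sord, the next enzyme of that route, was among the genes that fell in all 4, for example in female controls from 2057 ± 160 to 1181 ± 226 CPM (adjusted p = 0.00676, n = 4 each). Slc2a9, a urate and hexose transporter, also fell in all 4, by 0.82 on the log2 scale in female controls (adjusted p = 0.0105).

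**Figure D5:**
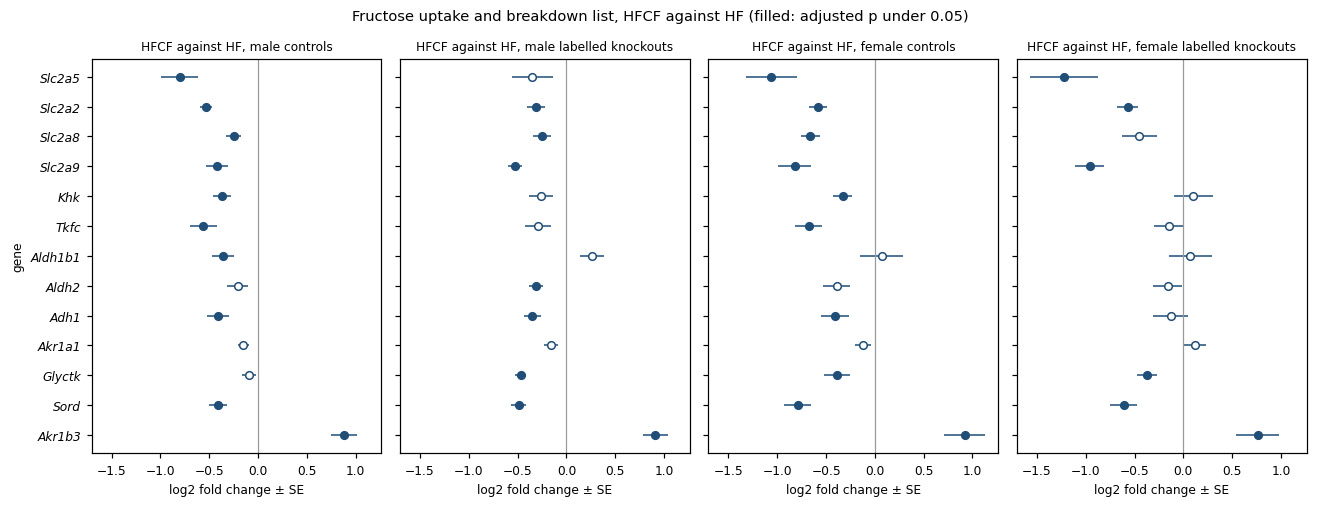
Log2 fold changes ± SE of 13 of the 14 genes of fructose uptake and breakdown on HFCF against HF in 4 comparisons, filled where the adjusted p was under 0.05. Akr1b3 is the only filled point to the right of 0 in each panel.

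Among 17 tested genes of gluconeogenesis, 8 were lower and 1 higher in male controls and 5 lower and 1 higher in female controls on HFCF against HF, with medians of -0.19 and -0.34. Slc37a4, the transporter that supplies glucose 6-phosphate to G6pc, was lower in all 4 comparisons, in female controls by 1.13 on the log2 scale (from 258 ± 64.1 to 117 ± 16.3 CPM, n = 4 each, adjusted p = 0.00546), while G6pc itself was not called in any. Pck2, the mitochondrial counterpart of Pck1, was called higher in all 4, for example from 8.51 ± 1.20 to 13.4 ± 2.23 CPM in male labelled knockouts (n = 6 each, adjusted p = 0.000521), the group in which Pck1 fell most against HF. Without 1 library the call of Pck2 was kept in 3 of 12 fits in male controls and in 2 of 8 in each female comparison, and that of Slc37a4 in female labelled knockouts in 3 of 8. Over all genes tested, 13% were called higher and 9.31% lower in male controls, and 16.9% and 13.8% in female controls. Of 25 tested glycolysis genes, 5 were higher and 6 lower in male controls and 7 higher and 3 lower in female controls, with medians of -0.12 and 0.03, so that 3 of 25 lower in females is near that background. Those that rose in controls of both sexes were Hk3, Pfkp, Pfkfb3, Pfkfb4 and Pkm. Pkm, the pyruvate kinase of most tissues, rose in female controls, from 25.8 ± 10.4 to 75.4 ± 17.0 CPM (adjusted p = 0.00627, n = 4 each). Pklr, the pyruvate kinase of liver, fell in male controls, from 568 ± 80.8 to 334 ± 75.5 CPM (adjusted p = 0.00263, n = 6 each). Macrophage markers rose in the same livers, as given above. The pentose phosphate list of 10 genes gave 1 higher and 1 lower in male controls and 2 higher and 1 lower in female controls, close to the share of all genes called in either direction (22.3% and 30.8%). G6pdx, its entry enzyme, rose in controls of both sexes, by 1.24 on the log2 scale in females (adjusted p = 0.00561).

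The 24 tested genes of ChREBP and its regulated genes, which include 6 members, gave 11 lower and 1 higher in male controls and 8 lower and 5 higher in female controls. The shares of all genes called in male and female controls were 9.31% and 13.8% lower, and 13% and 16.9% higher. The count of regulators below is to be read against the same shares. Arrdc4, the close relative of Txnip that shares its sugar response, fell in all 4 comparisons of HFCF with HF. In male controls it fell from 17.4 ± 1.82 to 11.9 ± 0.667 CPM (n = 6 each, adjusted p = 0.00121), where the log2 value of Txnip was -0.22 (adjusted p = 0.196). Klf10, a sugar-induced repressor, also fell in all 4, by 1.12 on the log2 scale in female controls (adjusted p = 0.00524). The genes that rose in female controls included the lipogenic Me1, Acaca and Elovl6, of which Elovl6 (0.97, adjusted p = 0.0473) kept its call in 1 of 8 fits without 1 library. Of 19 tested regulators of gluconeogenesis, 7 were lower and 0 higher in controls of each sex, among them Foxo3, Creb3l3, Hnf4a and Cebpa in both. Hnf4a is also among the hepatocyte markers that were called lower in these comparisons. The counts over these lists use TMM scaling. The hepatocyte scaling was fitted over all genes, but values of single genes are reported from it for the 8 members alone. With it, 96.7% to 98.8% of called genes were higher on HFCF against HF, and the list counts are not given on that scale.

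Against the LF diet, which was fed to females, the members with the largest changes were G6pc and Pck1. G6pc (ENSMUSG00000078650, chromosome 11, 101367561 to 101377903, plus strand) encodes glucose 6-phosphatase, the last step of glucose release. Controls had 618, 467, 533 and 480 CPM on LF, 177, 378, 250 and 328 CPM on HF and 201, 202, 145 and 216 CPM on HFCF. Both other diets lay wholly below LF. The log2 change was -1.47 on HFCF (SE 0.15, adjusted p = 0.00032), and -0.88 on HF (SE 0.21), which was not called (adjusted p = 0.0928). Labelled knockouts had 288, 436, 450 and 425 CPM on LF, 97.4, 67.8, 97.5 and 184 CPM on HF and 152, 145, 98.9 and 169 CPM on HFCF, again without overlap with LF. Their change was -1.83 on HF (SE 0.27, adjusted p = 0.0404) and -1.47 on HFCF (SE 0.20, adjusted p = 0.00224). The call on HF was kept in 2 of 8 fits without 1 library, those without HF labelled knockout 4 or LF labelled knockout 1, with log2 values of -2.19 to -1.67 and adjusted p of at most 0.145 over the 8.

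Pck1 was likewise highest on LF. Controls had 6226, 2823, 2302 and 2140 CPM on LF and 1414, 1126, 1830 and 1566 CPM on HFCF, a log2 change of -1.20 (SE 0.33, adjusted p = 0.0192) with ranges apart. LF control 1 stood far above its group, and without it the value was -0.71 and still called (adjusted p = 0.0103). The call was lost without HFCF control 1 (-1.17) or 2 (-1.05). Labelled knockouts had 2857, 2532, 2498 and 4511 CPM on LF and 780, 1008, 750 and 753 CPM on HFCF, a change of -1.88 (SE 0.22, adjusted p = 0.00145) that every fit without 1 library kept. On HF against LF the values were -0.80 in controls and -1.11 in labelled knockouts (adjusted p = 0.0846 in the latter), with no call. In the labelled knockouts the ranges were apart, and the adjusted p in the authors' deposited table was 0.000172.

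On HFCF against LF, 5 of 8 members were lower in controls (Khk, Tkfc, Fbp1, Pck1 and G6pc) and 3 of 8 in labelled knockouts (G6pc, Pck1 and Txnip), with 0 higher in either. The share of all genes called lower was 16.8% in controls and 3.74% in labelled knockouts, 18.4% and 8.26% were called higher, and 35.2% and 12% in either direction. Khk changed by -0.48 (adjusted p = 0.0289), Tkfc by -0.62 (adjusted p = 0.0217) and Fbp1 by -0.56 (adjusted p = 0.00923). Khk kept its call in 3 of 8 fits without 1 library (log2 -0.56 to -0.34), losing it without HFCF control 1, 2 or 5 or LF control 2 or 4. Tkfc lost its call without HFCF control 2 or 3 (log2 -0.70 to -0.41 over the 8 fits). Txnip in labelled knockouts had 136, 202, 254 and 192 CPM on LF and 92.9, 107, 131 and 93.9 CPM on HFCF, wholly below, a change of -0.85 (SE 0.20, adjusted p = 0.0185). It lost the call without HFCF labelled knockout 2 or 4 (log2 -1.0 to -0.69 over the 8 fits). Over the fits without 1 library the count of members ran from 2 to 7 in controls, with 2 without HFCF control 2 and 7 without LF control 1. In labelled knockouts it ran from 2 to 6, with 6 without HFCF labelled knockout 1, where Khk, Slc2a5 and Fbp1 joined.

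On HF against LF, 0 of 8 members were called in controls, where 0.696% of all genes were called, and 5 of the 8 values were negative. In labelled knockouts 1 of 8 was called, G6pc, where 0.155% of all genes were called in either direction, 0.0844% lower and 0.0704% higher. Of the 8 members, 3 in controls and 4 in labelled knockouts had an unadjusted p under 0.05, and the DESeq2 Wald test called 2 and 3. In the authors' deposited tables the adjusted p was 0.00451 for Slc2a2 and 0.00391 for G6pc in controls. In labelled knockouts it was 8.61e-09 for G6pc, 0.000172 for Pck1 and 0.0327 for Txnip. Slc2a2 in controls was the one with a positive value and ranges apart, at 413, 505, 483 and 488 CPM on LF against 610, 598, 584 and 613 CPM on HF (log2 0.36, adjusted p = 0.114).

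Scaled to the hepatocyte markers, G6pc on HFCF against LF was still called lower, at -0.74 in controls and -0.89 in labelled knockouts, as was Pck1 in labelled knockouts at -1.34. Pck1 in controls (-0.47, adjusted p = 0.102) and Txnip in labelled knockouts (-0.28, adjusted p = 0.29) were not called with that scaling. In controls Khk, Tkfc and Fbp1 turned to 0.22, 0.06 and 0.12 without a call, and Slc2a2, at -0.25 with TMM (adjusted p = 0.0887), turned to 0.45 and was called higher. Of 14 genes that respond to fasting or feeding, 3 were called higher (Pfkfb3, Gadd45b and Cdkn1a) and 5 lower (Lepr, Gadd45g, Irs2, Sds and Onecut1) on HFCF against LF in controls, where 18.4% and 16.8% of all genes were. On HF against LF in controls 0 were higher and 1 lower, Lepr. Lepr, the leptin receptor, whose liver level rises in fasting, had 85.3 ± 20 CPM in LF controls, 12.4 ± 7.08 CPM in HF controls and 25.9 ± 3.88 CPM in HFCF controls (SD, n = 4 each). Its log2 change was -2.77 on HF (adjusted p = 0.0114) and -1.73 on HFCF (adjusted p = 0.00031). Got1, the cytosolic aspartate aminotransferase, which is in the gluconeogenesis list, fell from 539 ± 274 CPM on LF to 172 ± 40.2 CPM on HFCF in controls (n = 4 each, adjusted p = 0.00386). The summed fasting and feeding list had medians of 2074 CPM in LF controls and 2455 CPM in LF labelled knockouts, and of 1658 to 1837 CPM in the other female groups. Its ranges overlapped, from 1509 to 4731 CPM in LF controls and from 1384 to 2421 CPM in the female HF and HFCF groups. Clock genes differed as well, with Arntl lower (-1.79, adjusted p = 0.0423) and Per2 and Per3 higher (0.88 and 1.0, adjusted p = 0.00879 and 0.00329) on HF than on LF in controls. Arntl lost its call in each of the 8 fits without 1 library, Per2 lost it without LF control 4, and Per3 kept it in all 8. The part of feeding state and of the clock in the changes of G6pc and Pck1 was not tested.

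The labelled knockout was compared with its control on each diet to see whether hepatocyte PPARγ bears on these genes. Txnip was the member that changed. Txnip (ENSMUSG00000038393, chromosome 3, 96557957 to 96561883, plus strand, overlapping Gm15441, which had at most 34 reads in a library) was 125 to 173 CPM in HF male controls (median 141) and 57.7 to 93.7 CPM in labelled knockouts (median 82.9). Every labelled knockout lay below every control, and the share of all genes for which that held is not given for males. The means were 146 ± 19.6 and 79.6 ± 12.7 CPM (SD, n = 6 each), and the log2 change was -0.88 (SE 0.11, adjusted p = 6.55e-05). This was 1 of 8 members called, where 18.5% of all genes were called in either direction, 9.88% lower and 8.57% higher. The fits without each library kept the call in 12 of 12, with log2 values of -0.93 to -0.80, and scaling to the hepatocyte markers gave -1.33.

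In HF males 5 members had an unadjusted p under 0.05, Txnip among them. The other 4 were Khk at 0.22 (adjusted p = 0.0762), Slc2a2 at -0.21 (adjusted p = 0.0663), Slc2a5 at 0.41 (adjusted p = 0.102) and Pck1 at 0.48 (adjusted p = 0.143). Each of these 4 was called in at least 1 fit without a library, and 3 members were called without labelled knockout 6. In the authors' deposited table the adjusted p was 0.0405 for Khk, 0.0524 for Slc2a2, 0.076 for Slc2a5 and 0.194 for Pck1. The hepatocyte markers were higher in these labelled knockouts, with 6 of 9 called higher and 0 lower and a median log2 change of 0.37. Of 4 tested blood markers 3 were higher and 0 lower, with a median of 1.39. Of the 8 macrophage markers 1 was higher (Clec4f) and 2 were lower (Trem2 and Gpnmb). Of the 14 fasting and feeding genes 2 were higher (Tat and Sds) and 3 lower (Pfkfb3, Igfbp1 and Cdkn1a), and of the 14 clock genes 2 were higher (Cry2 and Nr1d1) and 0 lower. Tat is also among the hepatocyte markers called higher. Among small intestine markers Apoa4 and Lgals4 were lower, and the pancreas marker Cela1 was higher. The part of these in the Txnip change was not tested. Scaled to the hepatocyte markers, Slc2a2 (-0.65), Tkfc (-0.46) and Fbp1 (-0.35) were called lower beside Txnip. Fbp1 turned from 0.08, and Khk (-0.20), Slc2a5 (-0.03) and G6pc (-0.44) also turned from positive values, without a call. That scaling moved the median of all genes to -0.43, and of its calls 1.60% were higher against 46.5% with TMM.

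In HFCF males no member was called, where 2.21% of all genes were, and 3 had an unadjusted p under 0.05. Txnip had 104 to 170 CPM in controls (median 116) and 72.4 to 111 CPM in labelled knockouts (median 84.0), which overlapped only through labelled knockout 3, the highest at 111 CPM. Its log2 value was -0.48 (SE 0.12, adjusted p = 0.0549). Slc2a5 had 5.28 to 10.0 CPM in controls (median 6.09) and 7.96 to 21.6 CPM in labelled knockouts (median 11.3), where control 1 was the overlapping library. Its log2 value was 0.87 (SE 0.23, adjusted p = 0.0683). Both genes were called without control 1 or without labelled knockout 3, and by the DESeq2 Wald test. In the authors' deposited table the adjusted p was 0.00868 for Txnip and 0.00978 for Slc2a5. Whether the Txnip change differed between HF and HFCF males was tested directly, and the difference of 0.38 (SE 0.17) had an adjusted p of 0.262.

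In females no member was called on any diet. The share of all genes called was 0% on LF, 0% on HF and 0.0534% on HFCF, so these comparisons called almost no gene of any kind. At an unadjusted p under 0.05 there was 1 member on LF, 5 on HF and 3 on HFCF. The clearest by range was Pck1 on HFCF, with 1414, 1126, 1830 and 1566 CPM in controls and 780, 1008, 750 and 753 CPM in labelled knockouts. These did not overlap, and the log2 value was -0.83 (SE 0.17, adjusted p = 0.216). The DESeq2 Wald test called it, and the adjusted p in the authors' deposited table was 0.000668. G6pc on LF (-0.38, adjusted p = 1) and Slc2a2 on HF (-0.18, adjusted p = 0.619) were the other members with ranges apart, and ranges were apart downwards for 0.966% of all genes on LF, 3.16% on HF and 3.49% on HFCF. The largest value was that of G6pc on HF, -1.34 (adjusted p = 0.501), at 97.4, 67.8, 97.5 and 184 CPM in labelled knockouts against 177, 378, 250 and 328 CPM in controls, where labelled knockout 4 overlapped control 1. Txnip in HF females was 126, 150, 113 and 116 CPM in labelled knockouts and 181, 190, 150 and 128 CPM in controls, a log2 value of -0.36 (adjusted p = 0.605). The DESeq2 Wald test called 0 members on LF and 0 on HF.

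Of the wider lists in HF males, 7 of 24 ChREBP-associated genes were lower and 1 higher in labelled knockouts, where 9.88% of all genes were lower and 8.57% higher. The other list counts in HF males are to be read against the same shares. Besides Txnip they included Gpd1, which makes glycerol 3-phosphate from triose (from 389 ± 30.7 to 259 ± 22.9 CPM, n = 6 each, adjusted p = 4.58e-05), and Me1, which supplies NADPH (from 316 ± 52.2 to 183 ± 43.0 CPM, adjusted p = 0.00114). Of 17 tested gluconeogenic genes 2 rose, Got1 by 0.73 and Slc37a4 by 0.34, and 3 fell, Pcx, Gpt2 and Slc25a10. Pcx, the pyruvate carboxylase that feeds gluconeogenesis and lipid synthesis, fell from 1037 ± 76.2 to 692 ± 41.4 CPM (n = 6 each, adjusted p = 2.37e-05), and also in HFCF males by 0.53 on the log2 scale (adjusted p = 0.00571). Hk2, a hexokinase that normal hepatocytes hardly express, fell from 14.7 ± 4.04 to 3.87 ± 0.484 CPM in HF males (n = 6 each, adjusted p = 5.58e-06) and from 20.4 ± 5.44 to 7.89 ± 0.894 CPM in HFCF males (n = 6 each, adjusted p = 0.00047). Of the 14 fructose genes only Slc2a9 was called in HF males, higher by 0.24 (adjusted p = 0.0366, kept in 6 of 12 fits without 1 library), and none in the other 4 comparisons of labelled knockouts with controls. Of 19 regulators of gluconeogenesis, 6 were higher and 0 lower in HF males, among them Klf15 at 0.79 (adjusted p = 0.00313).

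The 5 tests of a difference between effects asked whether the labelled knockout acted otherwise on HFCF than on HF, in males and in females, whether it acted otherwise in males than in females on HF and on HFCF, and whether HFCF acted otherwise in control males than in control females. None of the 8 members was called in any of them, and the smallest adjusted p of the 40 member tests was 0.217. The shares of all genes called were 1.56%, 0%, 0%, 0% and 0.00646% in that order. At an unadjusted p under 0.05 there were 2, 2, 3, 1 and 0 members, and the DESeq2 Wald test called 0 in each. For G6pc on HF the change was more positive in males than in females by 1.38 (SE 0.44, adjusted p = 0.328). Scaled to the hepatocyte markers, 3 members (Slc2a2 at 0.54, Slc2a5 at 0.75 and Txnip at 0.72) were called for the labelled knockout by diet term in males, where the median of all genes moved to 0.31.

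The members did not vary as 1 block over the 48 libraries. Pearson's r of log2(CPM + 0.5) is given as a description over libraries that share their group's diet and sex, and r within groups is that of the deviations from the group means. Khk and Fbp1 had r = 0.694, and 0.743 within groups. Pck1 and G6pc had 0.673, and 0.565 within groups. Slc2a2 and Slc2a5, the pair of transporters, had 0.607, and 0.563 within groups. Pck1 and Fbp1 had 0.692, and 0.115 within groups. Txnip was the least tied to the rest, with r between -0.0302 and 0.425.

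The genes most like single members over the 48 libraries were found among 12339 genes. Khk was most like Pygl, liver glycogen phosphorylase, with r = 0.850. Pck1 was most like Slc25a51, the mitochondrial NAD carrier, with 0.905, and Got1 came in the third place with 0.853. Slc2a2 was most like Ak4, an adenylate kinase, with 0.939. Fbp1 was most like Sdhd, a subunit of succinate dehydrogenase, with 0.919, and after it F2 and Agt, which encode the secreted proteins prothrombin and angiotensinogen. G6pc was most like Slc25a25, a mitochondrial ATP-magnesium carrier, with 0.778. Slc2a5 was most like Apol7a with 0.837, and Txnip like Slc22a5, the carnitine transporter, with 0.757, which was 0.342 within groups.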

How the data were processed

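RNA-seq of whole liver from 48 mice was deposited as 11 tables of pairwise comparisons. Per the labels' protocols, RNA was extracted with Trizol and the libraries do not keep strand. STAR 2.6.1, HTSeq 0.6.1, DESeq2 and the builds GRCm38 and mm10 are named in the submitters' processing notes. The deposited read counts per gene were joined by gene identifier into 29221 genes, and 0 of 1341082 repeated values differed between tables. The authors' deposited log2 fold changes and adjusted p-values were not used for any call. The deposited FPKM values, per kilobase of gene and depth, per the file headers, were used for no result. The deposited normalized counts, a signal that the values show to be each count divided by 1 size factor per library, were not used either.

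Each comparison was fitted on its own libraries with edgeR 4.0.16 (R 4.3.3): TMM scaling, filterByExpr, the quasi-likelihood F test and Benjamini-Hochberg adjustment over all genes, called at adjusted p under 0.05. There were 13 pairwise comparisons and 5 tests of a difference between effects, and all 8 genes passed the filter in each. CPM values use TMM library sizes. Simulated data from the HF male and HF female libraries, with genes changed by a known log2 fold of 1, gave recoveries of 88.2% and 64.9%. With a log2 fold of 2 they were 99% and 92.6% (14041 and 14128 genes). False calls made up 6.35% and 5.1% of the calls. These recoveries hold for the simulated settings and are not the power for a single member. The real HF female comparison called 0% of all genes.

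Same-numbered libraries were not treated as pairs, because no comparison had every pair's correlation of deviations over 0.1. That rule used the replicate numbers alone, and other ways in which the animals may be grouped were not examined. The members and gene lists were chosen with earlier results of these data known. Some genes stand in more than 1 list, so the list counts are not independent of each other. List genes were named by absolute log2 change, up to 3 called in each direction per list and comparison where they averaged 1 CPM or more, and further genes named beside them were chosen after their values were seen. Alternatives were DESeq2 1.42.0 (size factors, Wald test), other filters, one fit over all groups, a replicate block, omission of the 20 most abundant genes, leaving out each library, and, chosen after seeing the data, scaling to 9 hepatocyte markers. Likeness between genes used log2(CPM + 0.5). Depth limits Slc2a5 most, and read counts cover counting error only. Promoters came from RefSeq (GRCm38.p6). The values of 1 list gene, which counts in its list, are not reported here.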

Additional observations from a re-analysis of the deposited data

Results flagged for a closer look

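In 12 of the 80 combinations of gene and group, 1 library stood apart from the others by Dixon's criterion at the 95% level, which chance meets in about 1 group in 20. HFCF labelled knockout male 6 stood apart in 4 genes, with 766 CPM for Khk (others 448 to 521), 461 for Slc2a2 (others 333 to 378), 21.6 for Slc2a5 (others 7.96 to 12.5) and 1134 for Fbp1 (others 693 to 801). HFCF control male 1 had 10.0 CPM of Slc2a5 (others 5.28 to 6.86), and HFCF control male 3 had 170 CPM of Txnip (others 104 to 122).

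Among females, LF control 1 had 6226 CPM of Pck1 (others 2140 to 2823), and LF control 3 had 921 CPM of Tkfc (others 543 to 602). LF labelled knockout 1 was low for G6pc at 288 CPM (others 425 to 450), and HFCF control 5 was low for Slc2a2 at 348 CPM (others 414 to 422). HFCF labelled knockout 1 had 1491 CPM of Fbp1 (others 803 to 902), and HFCF labelled knockout 2 had 1008 CPM of Pck1 (others 750 to 780).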

How the results depend on the processing

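Scaling to the hepatocyte markers turned the sign of 33 of the 104 pairwise member values, and 22 of these were called under neither scaling. The other 11 follow. On HFCF against HF the female controls gave 0.17 for Fbp1, 0.27 for Khk and 0.03 for Slc2a2, and the male labelled knockouts gave 0.05, 0.33 and 0.30. On HFCF against LF the female controls gave 0.12 for Fbp1, 0.22 for Khk, 0.45 for Slc2a2 and 0.06 for Tkfc. In HF males the labelled knockout value of Fbp1 was -0.35. The same scaling called 4 members in HF males (1 with TMM), 3 in male controls (5) and 5 in male labelled knockouts (3) on HFCF against HF, 0 in female controls (5), 2 in female controls on HFCF against LF (5) and 3 for the labelled knockout by diet term in males (0). The DESeq2 Wald test called 2 members for the labelled knockout in HF males (1) and 2 in HFCF males (0), 1 in HFCF females (0), and on HF against LF 2 in controls (0) and 3 in labelled knockouts (1). Without a filter there were 2 in HFCF males and 2 on HF against LF in labelled knockouts. One fit over all groups of a sex gave 2 in HFCF males and 3 in female controls on HFCF against HF. The replicate block gave 2 in HF males, 1 in HFCF males, 0 in female controls on HFCF against HF, 0 in labelled knockouts on HF against LF and 1 in female controls on HFCF against LF. By the correlation rule above, the numbers were not taken to pair the libraries. The causes of these moves were not tested.

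Without 1 library at a time, the member count for the labelled knockout ran from 1 to 3 in HF males and 0 to 2 in HFCF males. On HFCF against HF it ran from 5 to 6 in male controls, 3 to 5 in male labelled knockouts, 3 to 6 in female controls and 1 to 4 in female labelled knockouts. On HFCF against LF it ran from 2 to 7 in controls and 2 to 6 in labelled knockouts, and on HF against LF from 0 to 2 in labelled knockouts. In the other comparisons it was 0 throughout. Of 104 pairwise member differences 78 were not called, and 36 of these changed sign in some setting. All 80 group levels moved by less than 1 SD with DESeq2 size factors. The permutation test and pseudocount planned for members under the filter were not run, since no member fell under it.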
